A study of Sus scrofa with 13 samples.

Results

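Liver cells make most of the proteins of blood plasma, and the genes described here encode those that are secreted all the time: albumin (ALB), transthyretin (TTR), fetuin-A (AHSG), retinol-binding protein (RBP4), alpha-1-microglobulin/bikunin precursor (AMBP), transferrin (TF), alpha-1-antitrypsin (SERPINA1), fetuin-B (FETUB), vitamin D-binding protein (GC) and histidine-rich glycoprotein (HRG). They were chosen by name, as the rows of the count table that carry one of these symbols. All 10 were present with 1 row each among 35670 genes, and all 10 were among the 16481 genes that passed the filter on low counts.

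The data are bulk RNA sequencing of liver biopsies from purpose-bred female Yorkshire pigs whose age is not given in the sources used here. Baseline livers (labelled "No ischemia-No infusion", 2 libraries, numbered 1a and 2) were sampled before any clamping. The ischemic controls (3 libraries) were sampled after 45 min of warm ischemia, with hepatic artery, portal vein and hepatic veins clamped, and 6 h of reperfusion, and received no cells. The arterial and the portal infusion groups (4 libraries each) had that same ischemia and reperfusion and were given 3 M (M for mega) human bone marrow-derived mesenchymal stromal cells (BM-MSCs) per kg body weight, by the hepatic artery in one group and by the portal vein in the other. The cells came from 2 human stocks of a commercial supplier, and the labels do not say which liver received which stock. Neither the labels nor the methods say whether a baseline biopsy and a later library came from the same pig, or from which lobe a library was made, and p-values below measure the spread between these libraries.

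In the textbook account of the acute phase response, inflammation shifts hepatocyte secretion toward positive acute phase proteins such as fibrinogen and serum amyloid A, and away from negative ones such as albumin, transthyretin, retinol-binding protein, transferrin and fetuin-A. Alpha-1-antitrypsin counts among the positive ones in many species. These proteins carry hormones, vitamins, metals and fatty acids, hold water in the vessels by their osmotic pressure, or inhibit proteases. Plasma levels lag behind the RNA because albumin is long-lived, so the RNA and the blood protein can differ over hours.

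Libraries held 18975413 to 35949178 counts in total (median 30260803). FETUB, which had the fewest counts of the 10 genes, still had 3159 to 18168 per library, so that counting error was small beside the spread between livers. The sequencing reads carry no molecular identifiers. The liver label was checked against 15 hepatocyte markers, each with counts in at least 1 library. Their summed level was 15546 and 19063 CPM (read counts scaled to a common library size) at baseline and 20497 to 23562 in ischemic controls. It was 17463 to 20485 after arterial and 13932 to 19056 after portal infusion. The sum includes APOA1, itself a plasma protein gene. The median edgeR log2 fold change of the 15 markers in controls against baseline was -0.0037. Along the first principal component of the 500 most variable genes outside the 10, which held 62.8% of the variance, 4 libraries stood apart from the other 9: ischemic control 2, arterial infusion 1 and portal infusions 1 and 4. Between 13581 and 16993 genes were detected in these 4, against 15831 to 20282 in the other 9. Their part in the results below was not tested, and for each gene the fitted changes without them (edgeR over the other 9) are given beside those over all 13.

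The genes lie on 6 autosomes of the pig assembly (RefSeq annotation of the Sscrofa11.1 build, matched by symbol). AHSG (ENSSSCG00000011799, chr13:124426313-124438848), FETUB (ENSSSCG00000011800, chr13:124480456-124494197) and HRG (ENSSSCG00000011801, chr13:124505305-124516387) stand next to each other within 90.1 kb and all encode proteins of the cystatin superfamily. ALB (ENSSSCG00000008948, chr8:69643427-69663152) and GC (ENSSSCG00000027609, chr8:68326293-68360262) belong to the albumin family and lie 1283 kb apart. TTR (ENSSSCG00000023686) is at chr6:115496338-115503974, RBP4 (ENSSSCG00000010479) at chr14:105037360-105044552, AMBP (ENSSSCG00000005485) at chr1:254683885-254703220 and SERPINA1 (ENSSSCG00000038515) at chr7:115604282-115616915, in a region of related serpin genes. TF (ENSSSCG00000011640) has 2 records on chromosome 13, at 74862502 to 74907059 and at 74930655 to 74970599, and the counted row was not tied to either, so TF values, like those of SERPINA1, are uncertain as far as reads of near copies could have been split between rows. Exon lengths were not used here, so levels are compared between livers for each gene and not between genes.

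As a share of all counts, the 10 genes together took 6.99% and 11.5% in the baseline livers 1a and 2. They took 4.68%, 3.81% and 8.66% in ischemic controls 1 to 3. After arterial infusion the summed share was 6.38%, 7.20%, 8.78% and 7.82%, and after portal infusion 3.64%, 6.43%, 7.62% and 3.71%. On average it was 9.22% ± 3.16 (SD, n = 2) before ischemia, 5.72% ± 2.59 (SD, n = 3) in controls, 7.54% ± 1.02 (SD, n = 4) after arterial and 5.35% ± 1.99 (SD, n = 4) after portal infusion. Only baseline 2 lay above every liver at 6 h, and the groups overlapped in each comparison. The means without the 4 libraries that stood apart were 6.67% in controls, 7.93% after arterial and 7.02% after portal infusion. ALB alone made up 41.9% to 69.6% of the sum, so the sum followed albumin, as the plot of summed shares by library shows.

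**Figure D1:**
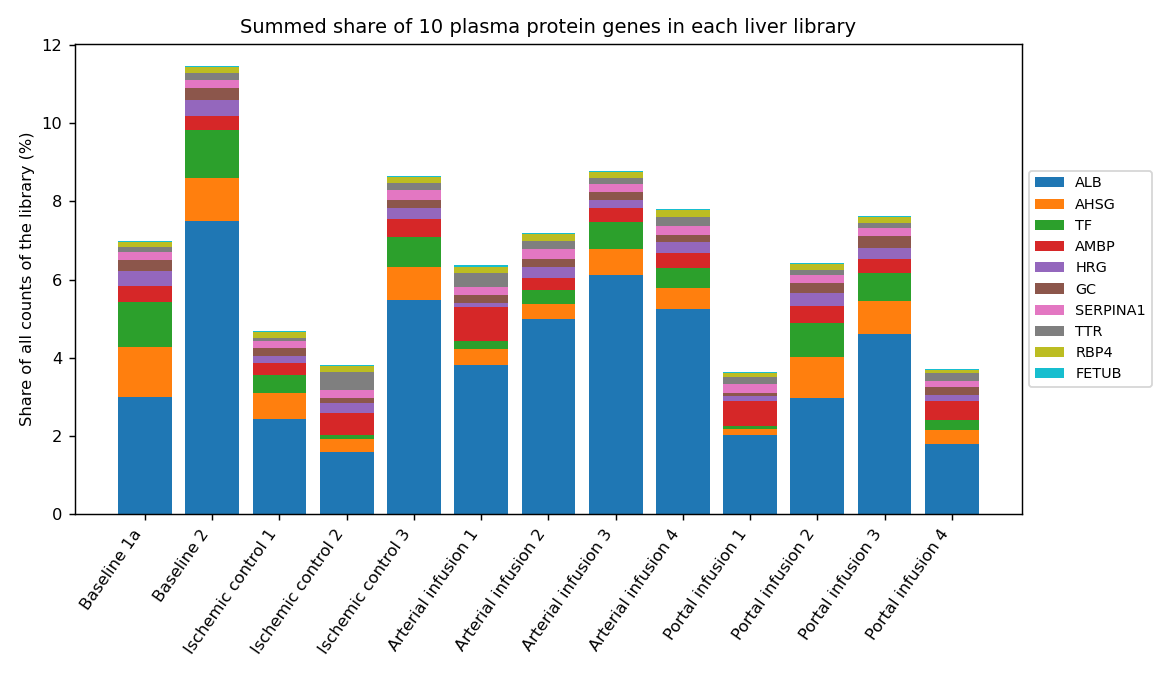
Share of all counts (%, vertical axis) of the 10 plasma protein genes, stacked by gene (colours), in each of the 13 liver libraries (horizontal axis, by group and replicate). Baseline 2 has the highest sum at 11.5% and portal infusion 1 the lowest at 3.64%, and ALB is the largest block in every library.

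The first question was how livers after ischemia and reperfusion differed from livers before it, asked of the ischemic controls alone and of all livers at 6 h, which include those controls and share the baseline. None of the 10 genes passed the threshold when ischemic controls were compared with baseline by edgeR's quasi-likelihood test over all 13 libraries (adjusted p from 0.978 to 0.999, against a background of 0% of all genes tested), and none had an unadjusted p under 0.05 (background 4.37%). DESeq2 also called 0 of the 10, with 0 at an unadjusted p under 0.05 (background of adjusted calls 0.0204%). The share of all genes at an unadjusted DESeq2 p under 0.05 was not counted, here or in the comparisons below. In all 11 livers at 6 h against baseline, edgeR called 0 of the 10 (adjusted p from 0.860 to 0.971, background 0%), with 0 at an unadjusted p under 0.05 (background 4.78%), and DESeq2 called 0, also at an unadjusted p under 0.05 (background of adjusted calls 0.0571%). The fitted log2 changes in controls ran from -1.46 for TF to 0.84 for TTR, 5 lower and 5 higher, with a median of -0.28 against 0.00 over all genes tested.

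The members nevertheless fell into a set whose shares lay below both baseline livers and a set whose shares did not. In ischemic controls against baseline 4 of 10 genes (AHSG, TF, GC and HRG) had shares that did not overlap, all lower, where 17.4% of all genes tested were lower and 12.3% higher in this sense, and 15.6% lower after TMM scaling (edgeR's correction of library size), which left the count at 4 of 10. With all 11 livers at 6 h on one side, AHSG, TF and HRG (3 of 10) lay below both baseline livers, against 6.08% of all genes lower and 1.93% higher. After TMM scaling TF was the 1 of 10 left, against 3.8% of genes. The remaining 6 genes overlapped baseline in both comparisons. Mitochondrial genome genes, which are part of all counts, took from 4.51% in baseline 2 to 22.0% in arterial 2, and their part in the shares was not tested.

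TF, the iron carrier of plasma, had the widest difference. It took 1.15% and 1.24% of all counts in the baseline livers 1a and 2. The ischemic controls 1 to 3 had 0.460%, 0.104% and 0.758%. The arterial livers 1 to 4 had 0.197%, 0.356%, 0.692% and 0.506%, and the portal livers 1 to 4 had 0.0860%, 0.853%, 0.724% and 0.262%. Every liver at 6 h was thus below both baseline livers, and the lowest were portal 1, control 2, arterial 1 and portal 4, the libraries that stood apart. The baseline mean of 1.19% ± 0.07 (SD, n = 2) compared with 0.454% ± 0.275 (SD, n = 11) at 6 h. The mean of the log2 shares, which weighs the lowest livers more, differed by -1.73. In edgeR the log2 fold change was -1.46 (SE 0.90, 95% interval -3.38 to 0.46) in controls and -1.31 (SE 0.70, interval -2.80 to 0.17) in all livers at 6 h. The exact two-sided permutation test on the share gave p = 0.0641 for all livers at 6 h, where the smallest p possible is 0.0128, and p = 0.2 for controls, where it is 0.1. Without the 4 libraries that stood apart, the fitted change of TF was -1.04 in controls (edgeR unadjusted p = 0.0151, adjusted p = 0.345) and -0.83 at 6 h (unadjusted p = 0.0112, adjusted p = 0.382). These 4 were left out after the data were seen and hold the lowest TF, and the SE in controls was 0.36 without them against 0.90. The share of all genes with an unadjusted p under 0.05 over the 9 libraries was not counted, for TF or the genes below.

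AHSG, an inhibitor of mineral deposition and a carrier of fatty acids, took 1.28% and 1.09% of all counts at baseline. Controls 1 to 3 had 0.674%, 0.312% and 0.860%. The arterial livers had 0.406%, 0.388%, 0.680% and 0.540%, and the portal livers 0.158%, 1.07%, 0.847% and 0.365%. As shares, all 11 livers at 6 h were below both baseline livers, portal 2 (1.07%) just under baseline 2 (1.09%), and portal 1 was the lowest. After TMM scaling portal 2 was above both baseline livers (log2 CPM 13.51 against 13.47 and 13.45). The baseline mean of 1.18% ± 0.13 (SD, n = 2) compared with 0.572% ± 0.277 (SD, n = 11) at 6 h. The exact permutation p was 0.0641 for all livers at 6 h and 0.2 for controls. The fitted log2 change at 6 h was -0.94 (SE 0.57, 95% interval -2.17 to 0.28), and -0.59 without the 4 libraries (edgeR unadjusted p = 0.0365, adjusted p = 0.459). In controls it was -0.92 (SE 0.72), and -0.67 over the 9 libraries (edgeR unadjusted p = 0.0587, adjusted p = 0.469).

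HRG, which binds heparin, zinc and fibrinogen, took 0.377% and 0.408% at baseline. Controls had 0.182%, 0.272% and 0.290%, arterial livers 0.120%, 0.284%, 0.207% and 0.281%, and portal livers 0.121%, 0.330%, 0.291% and 0.140%. As shares, all 11 were lower than both baseline livers, and arterial 1, portal 1 and portal 4 were lower than the rest. After TMM scaling portal 2 (log2 CPM 11.82) and arterial 2 (11.72) were above baseline 1a (11.71) and below baseline 2 (12.03). The baseline mean of 0.393% ± 0.022 (SD, n = 2) compared with 0.229% ± 0.077 (SD, n = 11) at 6 h. The exact permutation p was 0.0513 at 6 h, the smallest p of the 60 exact tests of single genes, and 0.1 in controls, the smallest that design can give. The fitted log2 change at 6 h was -0.66 (SE 0.49, 95% interval -1.72 to 0.39). Over the 9 libraries the fitted change of HRG was -0.46 at 6 h (edgeR unadjusted p = 0.104, adjusted p = 0.587) and -0.80 in controls (unadjusted p = 0.0365, adjusted p = 0.418).

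GC, the carrier of vitamin D and scavenger of actin released by dying cells, took 0.279% and 0.315% at baseline. Controls had 0.204%, 0.127% and 0.214%, arterial livers 0.207%, 0.225%, 0.206% and 0.177%, and portal livers 0.0867%, 0.269%, 0.291% and 0.211%. Of the 11 livers at 6 h, 10 were below both baseline livers and portal 3 lay between them. The exact permutation p was 0.128 at 6 h and 0.1 in controls, and the fitted log2 change in controls was -0.67 (SE 0.55, 95% interval -1.85 to 0.51). At 6 h it was -0.49 (SE 0.45), and without the 4 libraries -0.56 in controls (edgeR unadjusted p = 0.119) and -0.28 at 6 h (unadjusted p = 0.315).

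ALB, which holds most of the osmotic pressure of plasma, already varied widely between the livers sampled before ischemia. It took 3.00% and 7.50% of all counts in the baseline livers 1a and 2. Controls had 2.42%, 1.60% and 5.47%, arterial livers 3.82%, 5.00%, 6.11% and 5.25%, and portal livers 2.01%, 2.96%, 4.59% and 1.78%. Of the 11 livers at 6 h, 5 were below both baseline livers and none was above baseline 2. The fitted log2 change was -0.77 (SE 0.69, 95% interval -2.26 to 0.71) in controls and -0.52 (SE 0.57, interval -1.74 to 0.69) at 6 h. Without the 4 libraries that stood apart it was -0.53 in controls and -0.23 at 6 h. The direction rested on baseline 2: without it the change was 0.16 in controls and 0.41 at 6 h, and the median over the 10 genes turned from -0.28 to 0.13 in controls and from -0.19 to 0.25 at 6 h.

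TTR and RBP4, which circulate as 1 complex carrying thyroxine and retinol, varied together only weakly over all 13 libraries (Pearson r of log2 CPM 0.15). Over the 9 libraries that did not stand apart r was 0.43. TTR took 0.133% and 0.165% at baseline, and controls 1 to 3 had 0.0592%, 0.483% and 0.177%. Arterial livers had 0.364%, 0.191%, 0.143% and 0.242%, and portal livers 0.174%, 0.126%, 0.115% and 0.191%. The ischemic controls thus held both the lowest and the highest TTR of all 13 libraries, 8.16-fold apart. The fitted log2 change of TTR in controls was 0.84 (SE 0.72), and it was -0.41 without control 2 and -0.43 without the 4 libraries that stood apart. At 6 h it was 0.54 (SE 0.62), and -0.015 without those 4. RBP4 was far tighter, with 0.134% and 0.151% at baseline, 0.154%, 0.143% and 0.162% in controls, 0.149%, 0.187%, 0.165% and 0.176% after arterial, and 0.107%, 0.150%, 0.156% and 0.0925% after portal infusion. Its fitted log2 change was 0.18 (SE 0.46, 95% interval -0.81 to 1.16) in controls, and -0.012 without baseline 1a. The fitted change of RBP4 over the 9 libraries was 0.10 in controls and 0.29 at 6 h, against 0.15 at 6 h over all 13.

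SERPINA1 and AMBP, which encode protease inhibitors, differed in spread. From the lowest to the highest liver at 6 h, SERPINA1 varied 1.60-fold and AMBP 3.01-fold. SERPINA1, the inhibitor of neutrophil elastase, took 0.192% and 0.218% at baseline, 0.178%, 0.183% and 0.246% in controls, 0.186%, 0.256%, 0.208% and 0.225% after arterial, and 0.224%, 0.210%, 0.219% and 0.160% after portal infusion. Its fitted log2 change in controls was 0.036 (SE 0.44, 95% interval -0.91 to 0.98), with a sign that turned under 2 other settings (-0.0194 without a scaling factor and -0.0253 with mitochondrial genes left out) and without baseline 1a (-0.16). Over the 9 libraries SERPINA1 was at -0.016 in controls and 0.19 at 6 h, against 0.097 at 6 h over all 13. AMBP, the precursor of alpha-1-microglobulin and bikunin, took 0.424% and 0.345% at baseline. Controls had 0.322%, 0.567% and 0.458%, arterial livers 0.870%, 0.289%, 0.350% and 0.393%, and portal livers 0.645%, 0.435%, 0.356% and 0.492%. The highest 3 values were in arterial 1, portal 1 and control 2, all of them among the 4 libraries that stood apart and the same livers in which TF was lowest. The fitted log2 change of AMBP was 0.33 (SE 0.53) in controls, and -0.025 without those 4. At 6 h it was 0.36 (SE 0.46), and 0.075 without them.

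FETUB, the fetuin whose product inhibits the egg-hardening protease ovastacin, took 0.0257% and 0.0227% at baseline. Controls had 0.0267%, 0.0201% and 0.0278%, arterial livers 0.0600%, 0.0246%, 0.0196% and 0.0336%, and portal livers 0.0244%, 0.0309%, 0.0219% and 0.0147%. Arterial 1 was the highest and portal 4 the lowest, and the fitted log2 change in controls was 0.10 (SE 0.49, 95% interval -0.94 to 1.14). The fitted change of FETUB over the 9 libraries was 0.13 in controls and 0.24 at 6 h, against 0.23 at 6 h over all 13.

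**Figure D2:**
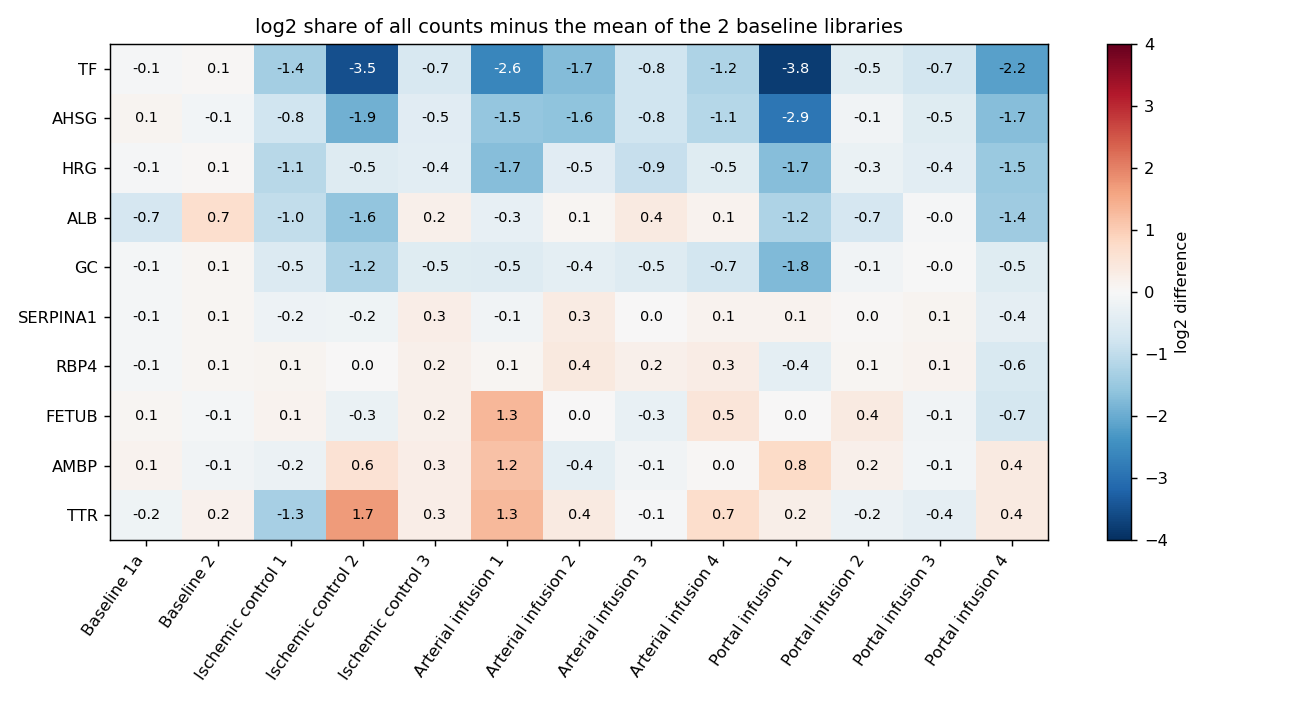
Difference of each gene's log2 share of all counts from the mean of the 2 baseline libraries, for the 10 genes (rows) and 13 libraries (columns), with blue lower and red higher. TF and AHSG are below 0 in every liver at 6 h and lowest in portal infusion 1 and ischemic control 2, in which AMBP and TTR are above 0.

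Liver by liver, between 4 and 8 of the 10 genes were below both baseline livers at 6 h and between 1 and 5 were above both. Control 1 and portal 4 had 8 genes below, and control 3 had 5 above, so every liver at 6 h had genes on both sides of baseline. The share of all genes outside the range of the 2 baseline livers was not counted per liver, so these counts have no background. A loss of hepatocytes and less RNA per hepatocyte cannot be told apart in such bulk samples. The summed neutrophil markers (5 of 8 matched) were at 45.2 and 47.2 CPM at baseline and between 26.9 and 360 CPM at 6 h, and the erythroid markers (5 of 6 matched) at 41.8 and 65.1 CPM at baseline and between 34 and 875 CPM at 6 h, the highest in control 2 and portal 1. The part of these cells in the shares was not tested.

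Ratios between 2 genes in the same library do not depend on library size or scaling. Of the ratios of the other 9 genes to ALB, 27 exact permutation tests over 3 comparisons gave 0 with p under 0.05. The 9 tests of controls against baseline could not fall under it, because the smallest p possible there is 0.1. The smallest exact permutation p was 0.0897, for TF to ALB in all livers at 6 h against baseline. The other ratios described here were chosen after their values were seen and are given without a test. How often other pairs of genes separate in this way was not counted. AHSG, HRG and TF already lay below both baseline livers as shares, so their ratios are not separate evidence. For the neighbours AHSG and FETUB, the ratio of counts was 49.7 and 48.0 in the baseline livers. It was 25.3, 15.5 and 31.0 in controls, 6.75, 15.7, 34.8 and 16.1 in arterial livers, and 6.50, 34.5, 38.6 and 24.8 in portal livers. Every liver at 6 h was thus below both baseline livers, although the 2 genes stand side by side on chromosome 13. HRG to FETUB was 14.7 and 18 at baseline and 2.00 to 13.6 at 6 h, again without overlap. TF to SERPINA1 was 5.95 and 5.68 at baseline and 0.384 to 4.06 at 6 h. AMBP to TF was 0.370 and 0.278 at baseline and 0.492 to 7.50 at 6 h, with the 3 highest ratios in portal 1 (7.50), control 2 (5.43) and arterial 1 (4.41). Without the 4 libraries that stood apart the log2 difference between livers at 6 h and baseline was -0.88 for AHSG to FETUB and -1.10 for TF to SERPINA1, against -1.33 and -1.75 with them. For HRG to FETUB it was -0.69 against -0.97, for AMBP to TF 0.94 against 1.96, and for TF to ALB -0.87 against -1.24. TTR to RBP4 was 0.994 and 1.10 at baseline and 0.384 to 3.37 at 6 h, on both sides of baseline.

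**Figure D3:**
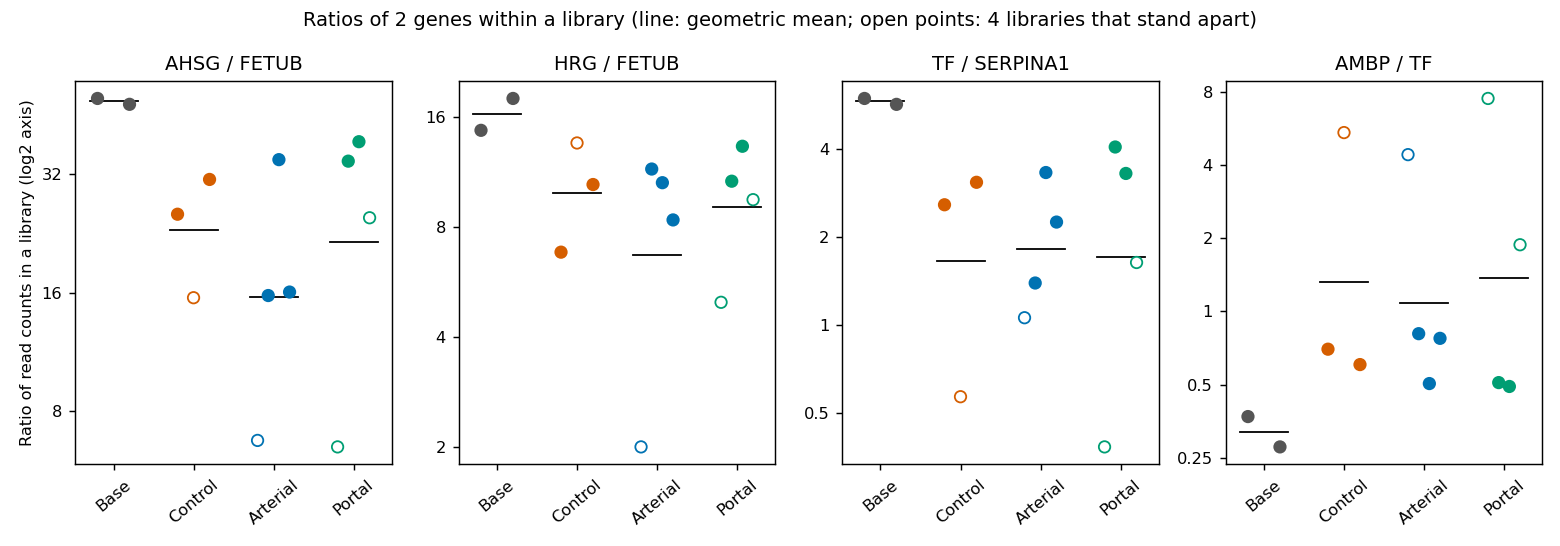
Ratio of the counts of 2 genes within a library (vertical axes, log2 scale) in the 4 groups, with lines at the geometric mean and open points for the 4 libraries that stood apart. AHSG to FETUB, HRG to FETUB and TF to SERPINA1 are below both baseline livers in all 11 livers at 6 h, and AMBP to TF is above them. These ratios were chosen after their values were seen.

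The 10 genes did not vary as 1 block among the 13 libraries. As a description over all 13 libraries, which differ in group and in depth, the Pearson correlation of log2 CPM was above 0 in 34 of 45 pairs, with a median of 0.30. AHSG and TF were the closest pair named here (r = 0.95, and 0.93 over the 9 libraries that did not stand apart). AHSG and GC reached 0.87 (0.60 over the 9), and RBP4 and SERPINA1 0.82 (0.88 over the 9). AMBP and TF had r = -0.67 over the 13 libraries and 0.46 over the 9, so the inverse relation rested on the 4 libraries. Against the mean of the other 9 genes, GC had the highest correlation (0.80), followed by HRG (0.75), AHSG (0.74), RBP4 (0.73) and ALB (0.72), while TTR (-0.15) and AMBP (-0.40) were below 0. These were not computed without the 4 libraries, where single pairs differed. TTR with ALB went from -0.03 to 0.72 and AMBP with AHSG from -0.51 to 0.53. TTR with AHSG (-0.38 and -0.33) and AMBP with RBP4 (-0.26 and -0.13) stayed below 0. Outside the 10, the genes most like their mean over the 13 libraries were APOH (r = 0.96), which encodes beta-2-glycoprotein I, PRXL2A (0.93), the aldehyde oxidase AOX1 (0.93), the liver glycogen phosphorylase PYGL (0.92), the endocytic adaptor EPN3 (0.92) and the replication clamp PCNA (0.92). Over the 9 libraries these fell to between 0.56 for PCNA and 0.88 for EPN3.

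Other secreted plasma proteins were read from a list in ischemic controls against baseline. Of its 27 genes 26 were tested, 0 passed the threshold, and 1 higher and 1 lower had an unadjusted edgeR p under 0.05, against 4.37% of all genes tested. Their median log2 fold change was -0.64 with 17 of 26 lower, and 12 had shares below both baseline livers while 3 were above, where 17.4% of all genes tested were lower and 12.3% higher. The heme carrier HPX was at 0.565% and 0.557% of all counts at baseline and at 0.518%, 1.15% and 0.600% in controls. APOA1, the main protein of high-density lipoprotein, was at 0.319% and 0.331% at baseline and at 0.510%, 1.02% and 0.581% in controls, above both baseline livers (log2 fold change 1.24, SE 0.61, edgeR adjusted p = 0.978). VTN, which encodes vitronectin, was at 0.394% and 0.510% at baseline and at 0.257% to 0.999% in controls, and APOH at 0.283% and 0.453% at baseline and at 0.197% to 0.305% in controls.

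For the positive acute phase proteins no gene passed the test either. Of 20 listed, 12 were matched and tested in controls against baseline, 0 passed the threshold, and 1 (higher) had an unadjusted edgeR p under 0.05, against 4.37% of all genes tested. The median log2 fold change was -0.18, with 7 of 12 lower. The fibrinogen chain FGB was at 3.41% and 3.93% at baseline and at 3.93%, 1.04% and 2.24% in controls, and FGG at 2.65% and 3.12% at baseline and at 2.89%, 0.450% and 1.54% in controls. ITIH4, a major acute phase protein of pigs, was at 1.65% and 1.79% at baseline and at 1.78%, 1.70% and 1.03% in controls. The complement component C3 was at 1.57% and 1.56% at baseline, at 1.05%, 1.32% and 1.33% in controls and at 0.583% to 1.18% in infused livers, so that all 11 livers at 6 h were below both baseline livers (log2 fold change -0.57, SE 0.39, edgeR adjusted p = 0.862). In that comparison 3 of the 12 genes were lower without overlap and 0 higher, against 6.08% of all genes tested lower and 1.93% higher.

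The hepatocyte transcription factors that drive these promoters (16 of 16 tested) gave 0 calls and 0 genes at an unadjusted edgeR p under 0.05 in controls (background 0% and 4.37%), with a median log2 fold change of -0.24. Of the 16 factors 1 was higher and 4 were lower without overlap in controls, against 12.3% higher and 17.4% lower among all genes tested. HNF4A, a main regulator of hepatocyte identity, was at 0.0594% and 0.0408% at baseline and at 0.0421%, 0.0256% and 0.0744% in controls. FOXA3 was at 0.00749% and 0.00955% at baseline and at 0.00588% to 0.00741% in controls, below both baseline livers. CEBPD was at 0.0750% and 0.0597% at baseline and at 0.0735% to 0.0938% in controls. CEBPB, a factor of the acute phase response, was at 0.0305% and 0.0166% at baseline and at 0.0511%, 0.0765% and 0.0495% in controls, above both baseline livers (log2 fold change 1.47, SE 0.74, edgeR adjusted p = 0.978). In infused livers CEBPB ran from 0.0151% to 0.129%, on both sides of baseline. Of 42 genes of the secretory route through the endoplasmic reticulum, 40 were tested with 0 calls, 0 at an unadjusted edgeR p under 0.05 (same backgrounds) and a median of 0.02. The chaperone HSPA5 was at 0.136% and 0.130% at baseline, at 0.206% and 0.284% in controls 1 and 3 and at 0.0205% in control 2. HSP90B1 was at 0.0965% and 0.0866% at baseline and at 0.162%, 0.0976% and 0.207% in controls, P4HB at 0.0993% and 0.0668% at baseline and 0.0895% to 0.126% in controls, and CALR at 0.0693% and 0.0571% at baseline and 0.0763% to 0.102% in controls. Of the 40 genes 6 had shares above both baseline livers in all controls, HSP90B1 and CALR among them, and 3 had shares below, near the 12.3% higher and under the 17.4% lower among all genes tested.

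The second question was whether infusion of BM-MSCs went with other levels of these genes at 6 h. In all infused livers against ischemic controls, edgeR called 0 of the 10 (adjusted p = 1.00 for each, background 0%), none had an unadjusted p under 0.05 (background 2.14%), and DESeq2 called 0, also at an unadjusted p under 0.05 (background of adjusted calls 0.00408%). No gene's shares were free of overlap (background 0.346% lower and 0.188% higher). The fitted log2 changes lay between -0.46 for TTR and 0.38 for ALB, with a median of 0.07 against -0.02 over all genes. The 95% intervals left room for sizeable differences in either direction: -0.76 to 1.51 for ALB, -1.24 to 1.68 for TF, -1.20 to 1.11 for AHSG and -0.76 to 0.70 for RBP4. Without control 2 the change of TTR was 0.80 and that of TF -0.23, each of the opposite sign to the value with it, and TF was at -0.011 without portal 2. The changes of AHSG, RBP4, AMBP and HRG, from -0.11 to 0.044 with all libraries, also changed sign when 1 of several livers was left out: AHSG ranged from -0.31 without control 2 to 0.15 without control 3, RBP4 from -0.12 without portal 3 to 0.047 without portal 4, AMBP from -0.17 without arterial 1 to 0.40 without control 2, and HRG from -0.30 without control 1 to 0.079 without control 2. Without the 4 libraries that stood apart the fitted changes of all 10 genes were above 0, from 0.13 for AHSG to 0.62 for TTR, with edgeR adjusted p from 0.595 to 0.904. The smallest exact permutation p of the 10 genes was 0.430, where 0.00606 is the smallest possible.

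The routes were each compared with the same ischemic controls. After arterial infusion edgeR called 0 of 10 (background 0%), 0 had an unadjusted p under 0.05 (background 1.57%), DESeq2 called 0, also at an unadjusted p under 0.05 (background of adjusted calls 0%), and no shares were free of overlap (background 1.83% lower and 1.16% higher). After portal infusion edgeR called 0 of 10 (background 0%), 0 had an unadjusted p under 0.05 (background 2.79%), DESeq2 called 0, also at an unadjusted p under 0.05 (background of adjusted calls 0.0163%), and no shares were free of overlap (background 2.27% lower and 1.14% higher). The widest fitted changes were 0.80 for ALB (SE 0.60, 95% interval -0.48 to 2.08) after arterial and -0.81 for TTR (SE 0.58, interval -2.05 to 0.44) after portal infusion. The smallest exact permutation p was 0.2 for the arterial and 0.314 for the portal route, with 0.0286 the smallest either can give (two-sided).

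Arterial and portal livers were then compared with each other. EdgeR called 0 of 10 (adjusted p = 1.00 for each, background 0%), 0 had an unadjusted p under 0.05 (background 2.4%), DESeq2 called 0, also at an unadjusted p under 0.05 (background of adjusted calls 0.00408%), and no shares were free of overlap (background 0.51% lower and 0.752% higher). ALB took 5.04% ± 0.95 (SD, n = 4) of all counts in arterial and 2.84% ± 1.28 (SD, n = 4) in portal livers, a fitted log2 difference of 0.85 (SE 0.55, 95% interval -0.32 to 2.02). Portal 3, at 4.59%, was above arterial 1, at 3.82%, and the remaining arterial livers were above all portal livers (exact permutation p = 0.0571, where 0.0286 is the smallest possible). RBP4 was at 0.169% ± 0.016 (SD, n = 4) in arterial and 0.126% ± 0.031 (SD, n = 4) in portal livers, with the exact permutation p at 0.0857. The lower portal values of both genes included portal 1 and portal 4, which stood apart. Without the 4 libraries the arterial minus portal difference of the mean log2 share was 0.56 for ALB, against 0.91 with them, and 0.20 for RBP4, against 0.45. By the same measure the differences of AHSG, TF, FETUB, GC and HRG changed sign, from between 0.037 and 0.50 with all livers to between -0.86 and -0.041. In the edgeR fit with all livers, AHSG (-0.30), TF (-0.16) and GC (-0.052) were already below 0, and FETUB (0.59) and HRG (0.032) above it. The summed Kupffer cell and macrophage markers (8 of 9 matched) were at 1460 and 743 CPM in the baseline livers 1a and 2. They were between 1373 and 2080 CPM in ischemic controls and between 700 and 1247 CPM in infused livers. The relation of these markers to the 10 genes was not tested.

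**Figure D4:**
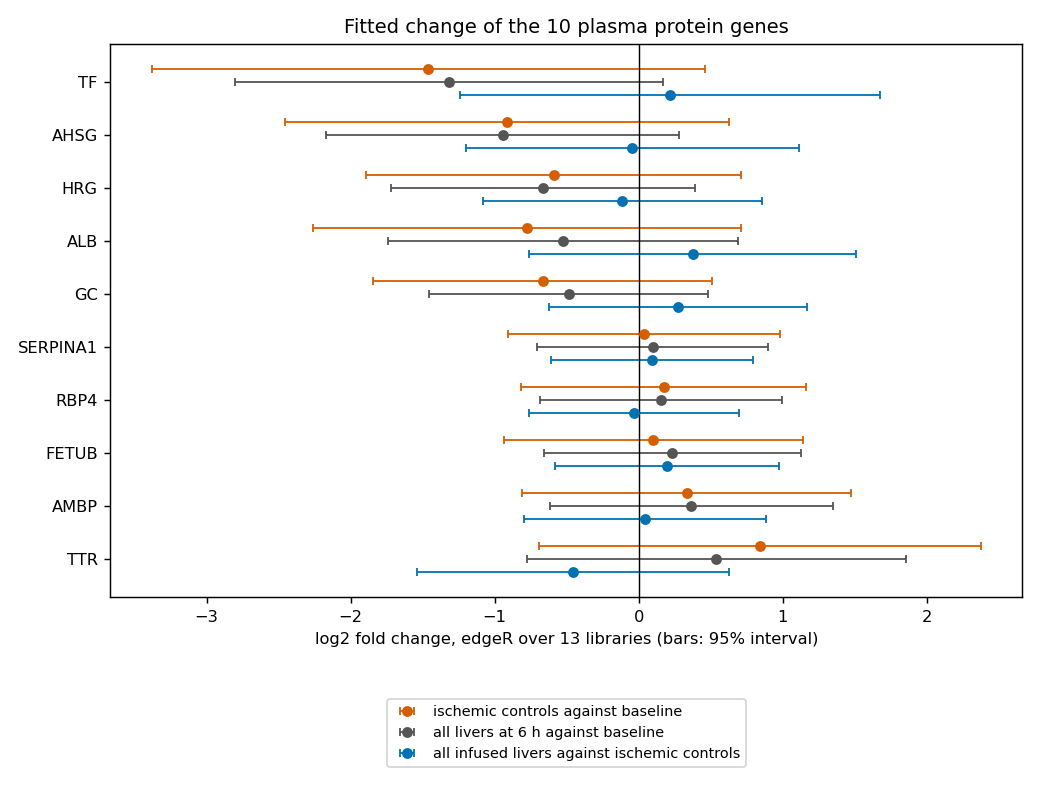
Fitted log2 fold change (horizontal axis) of each of the 10 genes (rows) from edgeR over 13 libraries, with 95% intervals, for ischemic controls against baseline, all livers at 6 h against baseline and all infused livers against ischemic controls. Every interval crosses 0, and TF is lowest in both comparisons with baseline at -1.46 and -1.31.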

How the data were processed

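RNA was measured in 13 pig liver libraries, and each column of the count table is 1 library. The deposited values are raw gene counts without normalization, which the authors made with HISAT2 alignments of paired-end reads on assembly Sscrofa11.1 and FeatureCounts on Ensembl genes. The libraries are non-directional, so reads from overlapping genes on opposite strands cannot be told apart, and handling of reads with several matches is not given in the sources used here. Sample labels gave the groups and numbers, and 0 columns had no sample. Libraries of 1 group were not copies of each other (chi-square per gene at least 60.3).

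The share of all counts was computed per gene and library. Differences were tested with the quasi-likelihood test of edgeR 4.0.16 in R 4.3.3 (TMM scaling, genes kept by filterByExpr, 4 groups in 1 fit, Benjamini-Hochberg adjustment over 16481 genes, threshold 0.05), with DESeq2 1.42.0 as an alternative, and with exact two-sided permutation tests on log2 shares and ratios in Python 3.11.15. The fits and tests were checked on simulated data. The alternatives were RLE, upper quartile and no scaling, 2 other filters on low counts, mitochondrial genes left out, the groups compared alone, the replicate number as a block, other denominators of the share and each library left out. All 10 genes are named, with the 4 most counted genes of each companion list and the 6 genes most correlated with the mean of the 10. The genes and the lists were chosen with earlier results of these data known.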

Additional observations from a re-analysis of the deposited data

How the results depend on the processing

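No plasma protein gene reached an adjusted p under 0.05 in any of the alternatives, DESeq2 included, the smallest adjusted p being 0.312. A calculation for all livers at 6 h over the groups compared alone would equal the one reported. The fitted log2 change of SERPINA1 in ischemic controls against baseline was -0.0194 without a scaling factor and -0.025 with mitochondrial genes left out, and the summed share after arterial infusion was 8.71% with those genes out of the denominator. The cause of the changes of sign given here was not tested.

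Fitting the replicate number as a block changed no call, and turned RBP4 in infused livers against controls to 0.027 (replicate block). The deviations of same-numbered libraries had a correlation over 0.1 in 5 of 16 pairs, and r ran from -0.42 to 0.43 (median -0.034). In 46 other pairs r ran from -0.53 to 0.44 (median -0.012). Whether same-numbered libraries came from the same pig or batch was not tested. These correlations cannot decide it, because no pair is known to share a pig. Of the 13 libraries 5 correlated best with a library of their own number.

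An alternative chosen after seeing the data left out ischemic control 2, arterial infusion 1 and portal infusions 1 and 4. Controls against baseline then gave -0.43 for TTR, -0.025 for AMBP and -0.016 for SERPINA1, all livers at 6 h gave -0.015 for TTR, and infused livers against controls gave 0.62 for TTR, 0.13 for AHSG, 0.28 for RBP4 and 0.51 for HRG, each with the sign reversed.

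Leaving out the libraries singly, the fitted log2 change in controls against baseline ranged from -0.46 to 0.13 for the median of the 10 genes, -1.35 to 0.16 for ALB, -0.41 to 1.32 for TTR, -0.012 to 0.35 for RBP4, -0.00700 to 0.54 for AMBP and -0.16 to 0.22 for SERPINA1. For all livers at 6 h it ranged from -0.39 to 0.25 for the median, -1.11 to 0.41 for ALB, -0.037 to 0.33 for RBP4 and -0.099 to 0.28 for SERPINA1. For infused livers against controls it ranged from -0.93 to 0.80 for TTR, -0.31 to 0.15 for AHSG, -0.12 to 0.047 for RBP4, -0.17 to 0.40 for AMBP, -0.23 to 0.74 for TF and -0.30 to 0.079 for HRG. The baseline of 2 livers limits every comparison with it, and without 1 of them the other is assumed to vary like the remaining groups. At this depth the spread between livers limited the precision more than counting did.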
